A study of Mus musculus with 60 samples.

Results

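The genes described here are 38 mouse genes for chromatin modifiers and chromatin remodelers. They were taken as a fixed list of symbols, chosen with earlier results of these data known. All 38 were found among the 35999 genes of the deposited table. They were measured by RNA sequencing of microglia, the resident macrophages of the brain, and of cells sorted as astrocytes, from male wild-type (WT) mice of the C57BL/6 strain (C57BL/6 J in the methods) and from their littermates carrying APPswe/PS1ΔE9 (AD). The transgenes encode a mutant human amyloid precursor protein and a mutant human presenilin and are driven by the mouse prion promoter. The APPswe/PS1ΔE9 line develops amyloid plaques with age. Both genotypes were sampled at 2, 4, 6, 9 and 12 months of age, which with the 2 cell types makes 20 groups, each labelled with 3 libraries and 60 in all. Microglia were sorted on CD11b with low to intermediate CD45 and astrocytes on ACSA2 after removal of myelin. Brains were processed singly and the cells stained for CD45, CD11b and ACSA2 together. Whether the microglia and astrocytes of a group came from the same mice is not stated, so the 2 cell types may not be independent. The comparisons asked how expression in each cell type differed between older and 2-month-old mice and between AD and WT mice of the same age.

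Chromatin modifiers add or remove chemical groups on histone tails or DNA, and remodelers use ATP to slide, eject or exchange nucleosomes. Trithorax-type enzymes methylate histone H3 at lysine 4 near promoters and enhancers, CBP and p300 acetylate histones at active enhancers, and the SWI/SNF, CHD, ISWI and INO80 families open, space or replace nucleosomes. In microglia such factors are known to help set the enhancers that respond to the tissue and to inflammation, and in glia of the oligodendrocyte lineage several of them are needed for differentiation. Many are large scaffold proteins encoded by long messenger RNAs.

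The table held 1 FPKM value per gene and group, fragments scaled to the length of the gene and the depth of the library, with no value per library. Every value below is therefore the authors' group value, and no spread between mice could be computed. No test was possible, and a difference is described by its size alone. Levels are printed as deposited. A difference is a log2 fold of FPKM scaled by a size factor for each group, with 0.1 added, which understates the difference for genes of low level. It is called lower or higher when it is past 0.5 on the log2 scale in a gene with at least 0.5 FPKM in either group. The steps between the lowest FPKM values gave library depths of 13.1 to 20.3 M fragments in microglia and 17.8 to 22.8 M in astrocytes (M, mega), with steps of 3 libraries in 18 groups and of 2 in WT microglia at 12 months and AD microglia at 4 months. At that depth the member value resting on the fewest fragments, Srcap in WT astrocytes at 6 months (0.125 FPKM, about 123 fragments), had a 95% counting interval of 0.104 to 0.149 FPKM, which covers counting error only and not differences between mice.

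The microglial groups carried 10 microglial markers at a summed 11848 to 29470 FPKM, against 19.6 to 40.6 FPKM in the astrocyte groups. In the groups labelled astrocytes, 8 oligodendrocyte markers summed to 12237 to 20418 FPKM and 9 astrocyte markers to 382 to 651 FPKM, so the cells there are called astrocytes by their label and gate only. AD microglia at 4 months had the highest sums of endothelial (362 FPKM), mural (142 FPKM) and choroid plexus markers (5415 FPKM) among the microglial groups. The choroid plexus sum was also 3355 FPKM in WT and 4859 FPKM in AD microglia at 6 months but 960 FPKM in AD microglia at 12 months. The neutrophil sum was 2031 FPKM in AD microglia at 9 months and 1141 FPKM at 12 months. Whether RNA from these other cells had a part in the members' values was not tested, and fewer cells of a type and less RNA per cell cannot be told apart in such bulk samples. Neuronal markers summed to 0.201 to 3.45 FPKM in microglia and 7.48 to 22.3 FPKM in astrocytes, markers of oligodendrocyte precursors to at most 1.02 and 7.27 FPKM, and those of border macrophages to at most 5.83 and 0.764 FPKM.

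The members shared features that the list did not use. Their exonic lengths ran from 5489 bases (Ehmt2) to 23148 bases (Chd9) with a median of 14026, and 33 of 38 were at least 8 kb long, against 11.8% of the 20255 genes with at least 0.5 FPKM in any group, whose median was 3013.5 bases. Of the 27 members with an entry in the RefSeq promoter table (GRCm38.p6, 300 bases that run past the start of transcription), 25 held a GC box, GGGCGG on either strand, 92.6% against 35.9% of all 27025 promoters of the same length and 60.4% of the 11948 promoters of genes with at least 0.5 FPKM in any group. None of the 27 held TATAAA on either strand, which was in 14.2% of all promoters and 7.55% of those of expressed genes, and 4 held CCAAT, 14.8% against 38% and 38.4%. The median number of CpG pairs in the window was 32 for the members, 7 over all promoters and 19 over those of expressed genes. A match is a string of letters and not a measured binding site.

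Promoters are shown for the members at the ends of one scale, of the 27 with an entry those whose levels differed most and least between groups (Kmt2d and Srcap, then Ncor1 and Smarcc2), with each GC box (GGGCGG, or CCGCCC for the other strand) in capitals and all 4 read 5′ to 3′ along the gene.
Kmt2d promoter, chr15:98871156-98871455, minus strand: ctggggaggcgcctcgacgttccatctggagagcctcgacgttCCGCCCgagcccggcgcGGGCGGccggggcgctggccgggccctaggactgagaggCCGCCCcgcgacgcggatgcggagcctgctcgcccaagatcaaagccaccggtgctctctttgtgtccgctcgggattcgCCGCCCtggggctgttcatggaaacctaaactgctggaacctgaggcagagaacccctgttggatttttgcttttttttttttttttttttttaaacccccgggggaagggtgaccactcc
Srcap promoter, chr7:127511733-127512032, plus strand: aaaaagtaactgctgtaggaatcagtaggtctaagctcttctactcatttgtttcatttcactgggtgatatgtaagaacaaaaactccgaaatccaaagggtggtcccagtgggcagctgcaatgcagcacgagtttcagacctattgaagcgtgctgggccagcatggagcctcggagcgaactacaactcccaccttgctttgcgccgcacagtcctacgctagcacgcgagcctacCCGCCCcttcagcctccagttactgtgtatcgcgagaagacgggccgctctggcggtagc
Ncor1 promoter, chr11:62457283-62457582, minus strand: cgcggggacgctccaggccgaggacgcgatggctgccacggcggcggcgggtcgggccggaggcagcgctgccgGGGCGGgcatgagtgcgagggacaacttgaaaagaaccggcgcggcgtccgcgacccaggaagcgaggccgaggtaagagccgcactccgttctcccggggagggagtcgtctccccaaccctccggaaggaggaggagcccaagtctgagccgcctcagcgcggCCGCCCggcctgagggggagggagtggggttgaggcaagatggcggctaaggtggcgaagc
Smarcc2 promoter, chr10:128458986-128459285, plus strand: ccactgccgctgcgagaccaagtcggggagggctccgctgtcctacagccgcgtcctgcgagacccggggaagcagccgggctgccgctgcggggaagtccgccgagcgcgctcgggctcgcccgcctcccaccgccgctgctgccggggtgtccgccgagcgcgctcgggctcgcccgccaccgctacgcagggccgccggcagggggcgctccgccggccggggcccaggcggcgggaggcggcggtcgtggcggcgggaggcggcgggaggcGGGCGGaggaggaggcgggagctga
The window of Kmt2d held 27 CpG pairs and 4 GC boxes and that of Srcap 16 and 1, while those of Ncor1 and Smarcc2 held 36 and 2 and 48 and 1. Within these 4 genes the number of GC boxes did not order with the range.

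In microglia every one of the 38 genes had its 3 lowest levels of 10 in the same groups, WT at 6 months, AD at 6 months and AD at 12 months. Over the 16902 genes with at least 0.5 FPKM in a microglial group, these groups were among the 3 lowest for 39.2%, 35.7% and 35.2% of genes. The lowest level of all was in AD at 12 months for 17 members, in WT at 6 months for 16 and in AD at 6 months for 5. These groups held the lowest level of 10.3%, 19.6% and 7.69% of all genes. The highest was in AD at 9 months for 18 members and in WT at 12 months for 12. Added up, the 38 genes came to 104 and 110 FPKM in WT and AD microglia at 6 months and 103 FPKM in AD microglia at 12 months, and to 190 to 252 FPKM in the other 7 groups.

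In astrocytes the same genotype and age groups held the low values, with exceptions. WT at 6 months was among the 3 lowest for 38 members (39.6% of 17312 genes), AD at 6 months for 36 (31.9%) and AD at 12 months for 34 (34.8%). The exceptions were Chd6, Chd7, Chd9 and Tet2, for which AD at 2 months was among the 3 lowest (25.6% of all genes). For Chd9 the other low group was WT at 2 months (32.2%) and for Tet2 it was WT at 9 months (20%). WT at 6 months was the lowest of all for 36 members, where 24.3% of all genes had their lowest level. The summed level was 77.2 FPKM there, 95.3 FPKM in AD at 6 months and 101 FPKM in AD at 12 months, against 132 to 161 FPKM in the other 7 groups.

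**Figure D1:**
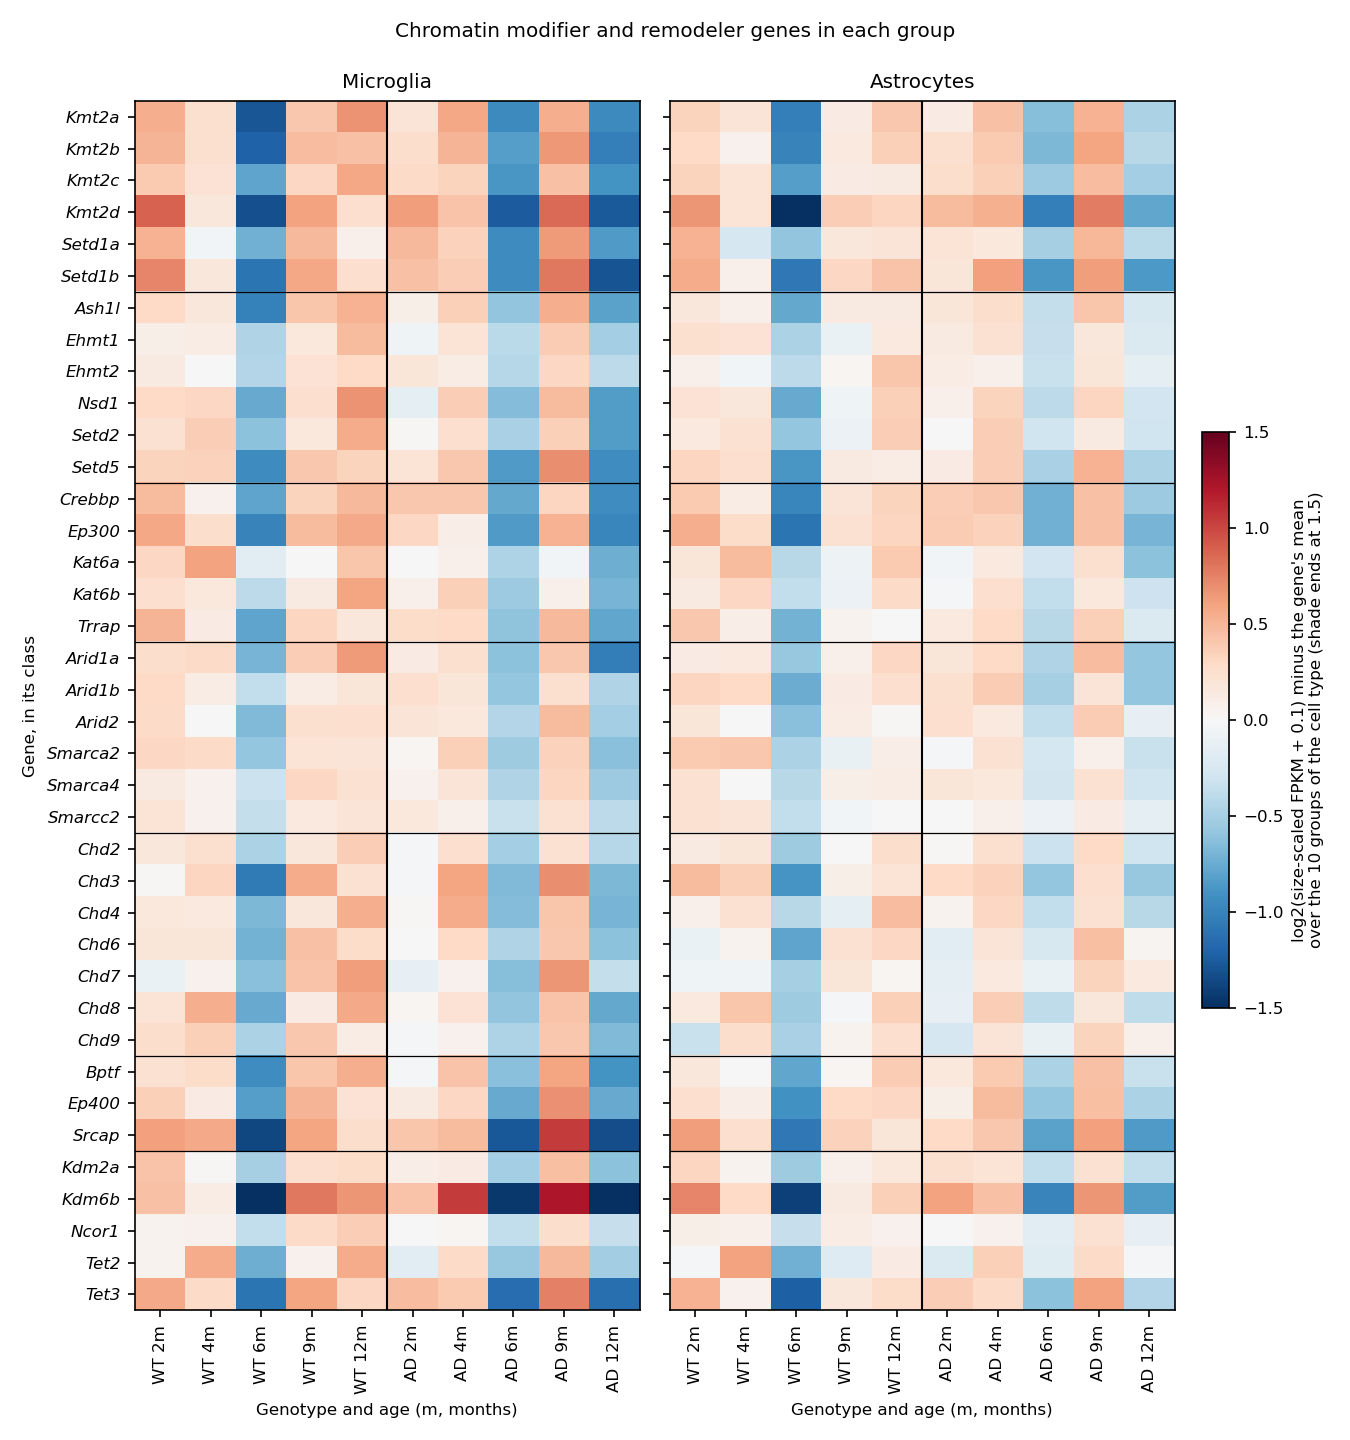
Level of each of the 38 genes in the 10 groups of each cell type, as log2(size-scaled FPKM + 0.1) minus the gene's mean over those groups, red for above and blue for below the mean, with the vertical line between WT and AD and horizontal lines between gene classes. The columns of WT at 6 months, AD at 6 months and AD at 12 months are blue in all 38 rows in microglia and in most rows in astrocytes.

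Among the 6 enzymes that methylate histone H3 at lysine 4, Kmt2c, which acts at enhancers, had the highest mean level. In microglia it measured 4.74, 4.37, 1.93, 4.52 and 5.39 FPKM in WT mice aged 2, 4, 6, 9 and 12 months and 4.51, 4.76, 1.86, 5.24 and 1.83 FPKM in AD mice of those ages. The 3 lowest of these values were 1.83 to 1.93 FPKM and the other 7 were 4.37 to 5.39 FPKM. In astrocytes Kmt2c was at 4.47, 4.09, 1.85, 3.93 and 3.94 FPKM in WT mice aged 2, 4, 6, 9 and 12 months and 4.34, 4.81, 2.34, 5.09 and 2.46 FPKM in AD mice of those ages. Its close relative Kmt2d, the other large enhancer enzyme of the pair, had a range of 2.20 log2 units in microglia and 2.29 in astrocytes, the largest of all members in astrocytes. Microglial Kmt2d stood at 5.97, 3.78, 1.17, 4.93 and 3.82 FPKM in WT mice aged 2, 4, 6, 9 and 12 months and 5.12, 4.55, 1.26, 6.25 and 1.25 FPKM in AD mice of those ages. The sorted astrocytes gave Kmt2d 3.18, 2.30, 0.589, 2.63 and 2.53 FPKM in WT mice aged 2, 4, 6, 9 and 12 months and 2.81, 3.05, 0.898, 3.55 and 1.11 FPKM in AD mice of those ages. Kmt2a and Kmt2b, the MLL enzymes that act mainly at promoters, ranged from 0.770 to 3.44 and 0.623 to 2.84 FPKM in microglia and from 0.982 to 3.31 and 0.403 to 1.52 FPKM in astrocytes. Setd1a and Setd1b, the catalytic subunits of the SET1 complexes that place most trimethylation at promoters, ranged from 0.529 to 1.96 and 0.446 to 2.42 FPKM in microglia.

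All 6 genes of this class were lower in 6-month than in 2-month WT microglia (median log2 fold -1.77), in AD microglia at 6 (-1.27) and 12 months (-1.31) against 2 months, and in AD against WT microglia at 12 months (-1.49). In astrocytes all 6 were likewise lower in WT at 6 months (-1.33), AD at 6 months (-0.87) and AD at 12 months (-0.72), and in AD against WT at 12 months (-0.82). In the same order 25.3%, 22.3%, 22.6% and 26.8% of all genes were lower in microglia and 26.2%, 17.9%, 18.1% and 16.5% in astrocytes. Long genes as a class were lower there too, as given below. It was the class with the lowest median in 9 of the 10 comparisons at 6 and 12 months (all but AD against WT astrocytes at 12 months, where the acetyltransferases were at -0.87). In WT microglia at 12 months Kmt2d was the only member of the 38 called lower than at 2 months (3.82 against 5.97 FPKM, log2 fold -0.63), against 11.3% of all genes.

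The methyltransferases for other residues were led by Ash1l, a trithorax-group enzyme for lysine 36. Ash1l in microglia measured 6.65, 6.36, 2.50, 7.27 and 7.74 FPKM in WT mice aged 2, 4, 6, 9 and 12 months and 5.88, 7.29, 3.47, 8.47 and 2.97 FPKM in AD mice of those ages. Its 3 lowest microglial values were 2.50, 2.97 and 3.47 FPKM and the next was 5.88 FPKM. The astrocyte values of Ash1l were 4.97, 4.71, 2.44, 4.95 and 4.93 FPKM in WT mice aged 2, 4, 6, 9 and 12 months and 5.12, 5.62, 3.38, 6.14 and 3.77 FPKM in AD mice of those ages, again with WT at 6 months lowest. Setd2, which trimethylates lysine 36 along transcribed genes, ranged from 2.23 to 6.17 FPKM in microglia and 1.25 to 2.76 FPKM in astrocytes. Nsd1, which dimethylates lysine 36, ranged from 2.15 to 6.47 and 1.45 to 3.54 FPKM, and the SET domain protein Setd5 from 1.42 to 5.22 and 0.914 to 2.78 FPKM. Ehmt1 and Ehmt2, partners in the GLP and G9a complex that methylates lysine 9 at silenced genes, differed least between groups in this class. Ehmt2 in microglia was at 5.93, 5.64, 3.76, 6.30 and 6.63 FPKM in WT mice aged 2, 4, 6, 9 and 12 months and 6.28, 6.11, 3.87, 7.16 and 3.96 FPKM in AD mice of those ages, a range of 0.74 log2 units with the same 3 groups lowest.

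Of the acetyltransferase genes, Kat6a, a MYST-family enzyme, was the most abundant and the least like the rest in microglia. Microglial Kat6a stood at 10.2, 13, 6.91, 8.25 and 11 FPKM in WT mice aged 2, 4, 6, 9 and 12 months and 8.44, 9.05, 5.77, 8.54 and 4.75 FPKM in AD mice of those ages. Its lowest value was in AD at 12 months, and its value in WT at 6 months (6.91 FPKM) was not far under that in WT at 9 months (8.25 FPKM). Astrocytes gave Kat6a values of 6.04, 7.43, 3.78, 5.13 and 7.08 FPKM in WT mice aged 2, 4, 6, 9 and 12 months and 5.22, 6.19, 4.27, 6.5 and 3.45 FPKM in AD mice of those ages, with AD at 12 months lowest there too. Crebbp and Ep300, which encode CBP and p300, ranged from 2.64 to 7.38 and 2.55 to 8.47 FPKM in microglia and 1.90 to 5.70 and 0.846 to 2.97 FPKM in astrocytes. Trrap, the scaffold shared by TIP60 and SAGA-type acetyltransferase complexes, ranged from 1.04 to 2.98 and 0.783 to 1.89 FPKM, and Kat6b from 0.342 to 1 and 0.570 to 1.02 FPKM. In WT microglia at 6 months against 2 months 4 of the 5 were lower (median -1.27, with Kat6a at -0.49), and in AD against WT microglia at 12 months all 5 were (median -1.29). Of all genes 25.3% and 26.8% were lower in these 2 comparisons.

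The SWI/SNF subunits were led by Smarca4, the BRG1 ATPase that drives the complex. In microglia Smarca4 was at 11.2, 11.2, 7.79, 12.8 and 12.0 FPKM in WT mice aged 2, 4, 6, 9 and 12 months and 11, 12.3, 7.32, 13.8 and 6.81 FPKM in AD mice of those ages. Its astrocyte levels were 12.1, 10.3, 7.30, 11.1 and 11.3 FPKM in WT mice aged 2, 4, 6, 9 and 12 months and 11.8, 12.0, 8.29, 12.5 and 8.42 FPKM in AD mice of those ages, a range of only 0.65 log2 units. Smarcc2, a core structural subunit, had the smallest range of any member in microglia (0.63) and the second smallest in astrocytes (0.60). Microglial Smarcc2 measured 9.99, 9.49, 6.39, 9.65 and 9.90 FPKM in WT mice aged 2, 4, 6, 9 and 12 months and 9.85, 9.54, 6.66, 10.9 and 6.36 FPKM in AD mice of those ages. The 3 lowest of these were 6.36 to 6.66 FPKM and the other 7 were 9.49 to 10.9 FPKM. In the astrocyte groups Smarcc2 was at 14.0, 13.7, 8.78, 11.8 and 12.2 FPKM in WT mice aged 2, 4, 6, 9 and 12 months and 12.1, 13.2, 11, 13.5 and 10.9 FPKM in AD mice of those ages. Arid1a, the DNA-binding subunit of the canonical BAF form, ranged from 4.73 to 15.8 FPKM in microglia, where its lowest value was in AD at 12 months, and 2.40 to 5.43 FPKM in astrocytes. The alternative subunit Arid1b ranged from 1.26 to 2.53 and 0.941 to 2.39 FPKM, the PBAF subunit Arid2 from 1.76 to 4.5 and 1.24 to 2.81 FPKM, and the BRM ATPase Smarca2 from 3.69 to 8.09 and 3.84 to 7.52 FPKM. The class median was -0.78 in WT microglia at 6 months, -0.60 and -0.68 in AD microglia at 6 and 12 months, and -0.77 in AD against WT microglia at 12 months.

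The CHD remodelers held the genes that departed most from the shared pattern in astrocytes. Chd7, which binds enhancers and is mutated in CHARGE syndrome in humans, was the most abundant and measured in microglia 9.14, 10.8, 6.01, 13.4 and 15.3 FPKM in WT mice aged 2, 4, 6, 9 and 12 months and 9.19, 10.7, 6.15, 16.8 and 7.48 FPKM in AD mice of those ages. In WT microglia it was higher at 12 months than at 2 (log2 fold 0.73), and in AD microglia at 12 months it was 7.48 FPKM, -0.22 against 2 months. The astrocyte levels of Chd7 were 4.93, 5, 3.46, 5.99 and 5.35 FPKM in WT mice aged 2, 4, 6, 9 and 12 months and 4.77, 6.03, 4.73, 6.76 and 5.76 FPKM in AD mice of those ages, so that AD at 6 and 12 months (0.03 and 0.28 against 2 months) was not low there. Chd9, the longest member, was at -0.15 in WT astrocytes at 6 months against 2 months and 0.59 at 12 months, the only member called higher in that last comparison. Chd6 in astrocytes was at -0.69 in WT at 6 months but -0.08 in AD at 6 months. Chd3 and Chd4, the alternative ATPases of the NuRD complex, ranged from 1.12 to 4.51 and 3.83 to 10.0 FPKM in microglia and 0.747 to 2.15 and 5.27 to 10.4 FPKM in astrocytes. Chd2 ranged from 2.38 to 4.58 and 0.983 to 1.99 FPKM and Chd8 from 0.759 to 2.22 and 0.566 to 1.26 FPKM.

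Bptf, the largest subunit of the NURF remodeler, led the ISWI and INO80 families. Its microglial levels were 4.73, 5.12, 1.96, 5.46 and 5.94 FPKM in WT mice aged 2, 4, 6, 9 and 12 months and 4.08, 5.75, 2.52, 6.56 and 2.06 FPKM in AD mice of those ages. In astrocytes Bptf was at 3.84, 3.44, 1.86, 3.56 and 4.56 FPKM in WT mice aged 2, 4, 6, 9 and 12 months and 3.88, 4.76, 2.40, 4.86 and 2.72 FPKM in AD mice of those ages. Srcap, the ATPase that exchanges H2A for H2A.Z, had the second largest range in microglia (2.41) at 1, 1.02, 0.173, 0.996 and 0.768 FPKM in WT mice aged 2, 4, 6, 9 and 12 months and 0.888, 0.948, 0.194, 1.5 and 0.182 FPKM in AD mice of those ages. Its levels in the 3 low groups were all under 0.2 FPKM and its other microglial levels were all above 0.7 FPKM. Ep400, the ATPase of the TIP60 complex, ranged from 1.72 to 5.75 FPKM in microglia and 1.15 to 3.48 FPKM in astrocytes.

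The remaining genes act on marks by removing or reading them. Kdm6b, the JMJD3 demethylase for lysine 27 that inflammatory signals induce in macrophages, had the largest range in microglia (2.89) and measured 3.34, 2.78, 0.716, 4.33 and 3.92 FPKM in WT mice aged 2, 4, 6, 9 and 12 months and 3.41, 5.41, 0.817, 6.24 and 0.679 FPKM in AD mice of those ages. Its 3 lowest values were 0.679 to 0.817 FPKM and its 2 highest were in AD mice at 9 and 4 months. In AD against WT microglia Kdm6b was at 0.93 at 4 months and -2.34 at 12 months, the first in the group with the highest endothelial, mural and choroid plexus sums, whose part was not tested. In astrocytes Kdm6b was at 2.01, 1.48, 0.363, 1.32 and 1.56 FPKM in WT mice aged 2, 4, 6, 9 and 12 months and 1.86, 1.71, 0.534, 1.99 and 0.617 FPKM in AD mice of those ages. Tet3, which oxidizes methylcytosine, had the third largest range in astrocytes (1.83) at 3.89, 2.81, 1.04, 3.07 and 3.30 FPKM in WT mice aged 2, 4, 6, 9 and 12 months and 3.54, 3.45, 1.68, 4.27 and 1.96 FPKM in AD mice of those ages. Its relative Tet2 ranged from 1.79 to 4.94 and 0.846 to 2.38 FPKM, and Kdm2a, a lysine 36 demethylase, from 1.83 to 4.35 and 1.2 to 2.35 FPKM. Ncor1, the corepressor scaffold that holds the deacetylase HDAC3, was the most abundant member of all and the least variable in astrocytes. In microglia Ncor1 was at 12.8, 13.5, 9.08, 15.2 and 16 FPKM in WT mice aged 2, 4, 6, 9 and 12 months and 12.6, 13.2, 9.31, 15.9 and 9.42 FPKM in AD mice of those ages. Astrocytes gave it 10.9, 10.8, 7.69, 11.3 and 10.8 FPKM in WT mice aged 2, 4, 6, 9 and 12 months and 10.3, 11.3, 9.03, 12.4 and 9.50 FPKM in AD mice of those ages, a range of 0.56 log2 units.

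**Figure D2:**
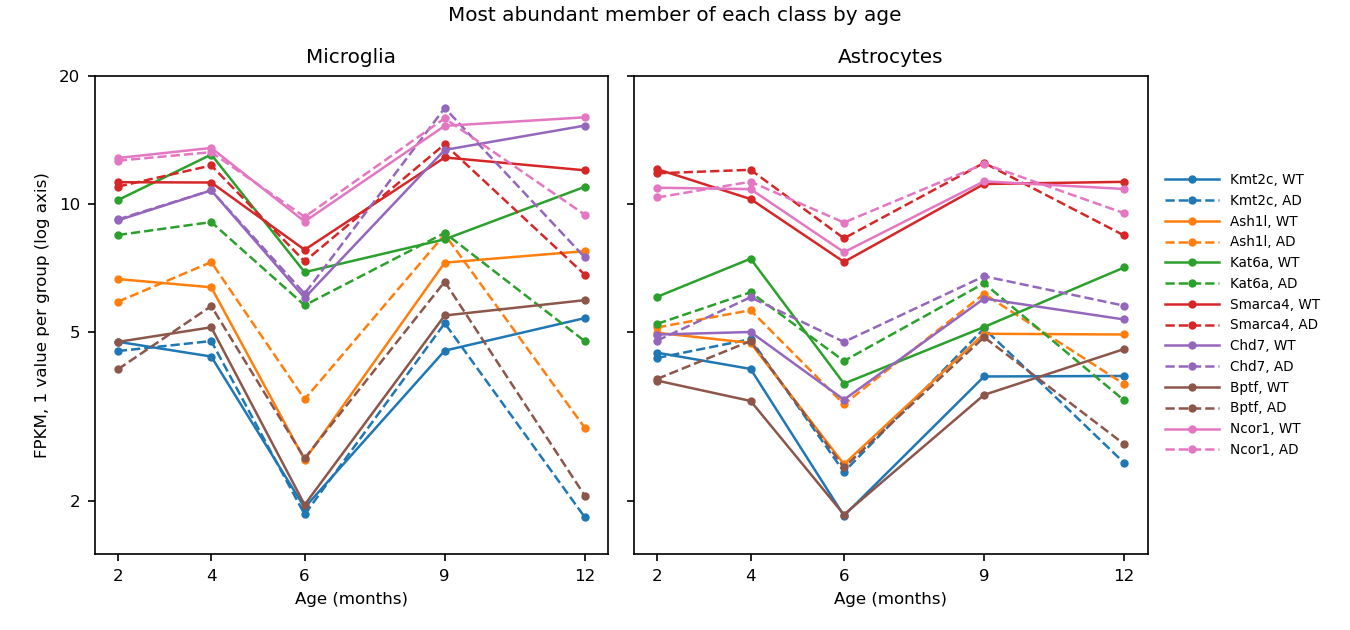
FPKM (log axis) against age in months for the most abundant gene of each of the 7 classes, 1 value per group, WT as solid and AD as dashed lines. In microglia WT and AD lines dip together at 6 months and separate at 12 months, where the AD value is the lower for all 7 genes, and in astrocytes Chd7 is the exception at 12 months.

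Against 2-month-old mice of the same genotype, WT microglia at 6 months had 35 of 38 members lower and none higher, with a median log2 fold of -0.96 and a range of -2.20 to -0.42. Over the 14068 genes kept, 25.3% lower and 26.9% higher were called, and the median was 0.11. The 3 members not called were Kat6a (-0.49), Smarca4 (-0.45) and Ncor1 (-0.42). At 12 months the same WT cells had 1 member lower and 2 higher, Chd7 and Tet2 (0.51), with a median of 0.10, against 11.3% lower and 15.3% higher of all genes. At 4 months 3 were lower (Kmt2d at -0.71, Setd1a and Setd1b, both at -0.57) and 1 higher (Tet2 at 0.50), against 8.03% lower and 12.9% higher. At 9 months 2 were higher, Chd3 and Chd7 (both 0.53), and none lower, against 6.58% lower and 13.8% higher. The 4 comparisons share the 2-month group and are not independent of each other.

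AD microglia at 6 months had 29 of 38 members lower than at 2 months and none higher (median -0.64, range -1.88 to -0.34), against 22.3% lower and 22.8% higher of all genes. At 12 months 33 were lower and none higher (median -0.79, range -2.11 to -0.22), against 22.6% lower and 24.6% higher. The 5 not called at 12 months were Chd2 (-0.41), Chd7 (-0.22), Ehmt1 (-0.44), Tet2 (-0.35) and Ncor1 (-0.35). At 4 months 4 were higher and none lower, Kdm6b (0.61), Chd3 (0.61), Chd4 (0.53) and Nsd1 (0.52), against 10.5% lower and 22.4% higher. At 9 months 9 were higher and none lower with a median of 0.34, led by Chd7 (0.79), Kdm6b (0.78) and Chd3 (0.71), and 14.1% lower and 23.4% higher of all genes were called, a share of higher calls close to that of the members.

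Set against WT microglia of the same age, AD microglia at 12 months had all 38 members lower, with a median of -1.2 and a range of -2.34 (Kdm6b) to -0.60 (Smarcc2), where 26.8% lower and 25.7% higher of 14446 genes were called. At 2 months none was called in either direction (median -0.18), against 7.22% lower and 7.59% higher. At 4 months Kat6a was lower (-0.52) and Kdm6b higher, against 8.14% lower and 17.7% higher. At 6 months none of the 36 members kept was called (median 0.07), with Kat6b and Srcap under the level filter, against 6.13% lower and 8.77% higher. At 9 months none was called (median 0.15), against 7.43% lower and 12.3% higher.

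WT astrocytes at 6 months had 33 of 38 members lower than at 2 months and none higher (median -0.90, range -2.19 to -0.15), against 26.2% lower and 28.0% higher of 15548 genes. The 5 not called were Chd9, Ncor1 (-0.43), Chd7 (-0.43), Ehmt2 (-0.47) and Chd4 (-0.49). At 12 months none was lower and Chd9 alone was higher (median -0.05), against 14.2% lower and 16.2% higher. At 4 months Setd1a was lower (-0.77) and Tet2 (0.62) and Chd9 (0.60) higher, against 8.37% lower and 12.9% higher. At 9 months Kdm6b (-0.60) and Smarca2 (-0.51) were lower and none higher, against 12.1% lower and 12.1% higher.

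AD astrocytes at 6 months had 21 of 38 members lower and none higher (median -0.58), against 17.9% lower and 17.9% higher. The H3K4 methyltransferases and the ISWI and INO80 families were lower in full while 1 of the 7 CHD genes, Chd3 (-0.87), was. At 12 months 18 were lower and none higher (median -0.48), against 18.1% lower and 18.7% higher. At 4 months Tet2 alone was higher (0.58) and none lower, against 7.16% lower and 13.2% higher. At 9 months Chd6 (0.61), Chd9 (0.58) and Tet2 (0.51) were higher and none lower, against 10.2% lower and 12.7% higher.

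In AD against WT astrocytes at 12 months 25 of the 37 members kept were lower and none higher (median -0.65), where 16.5% lower and 14.6% higher of 15632 genes were called. The lowest folds were those of Setd1b (-1.29), Kdm6b (-1.2) and Kmt2d (-1.11), and Chd7 was at 0.11. At 6 months Tet3 (0.60), Chd6 (0.55) and Tet2 (0.54) were higher in AD and none lower, against 11.4% lower and 9.40% higher. At 4 months Setd1b was higher (0.54), against 8.95% lower and 11.3% higher, and at 9 months Kdm6b was (0.54), against 5.60% lower and 8.42% higher, with none lower at either age. At 2 months none was called, against 5.96% lower and 6.18% higher.

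The balance of calls over all genes depended on the scaling. With size factors taken only from genes of at least 1 FPKM in every group, the median of all genes shifted by -0.22 in WT microglia at 6 months against 2 months, and 68.1% and not 48.5% of calls were on the lower side. The members lower were then 38 and not 35, against 32.8% of all genes. In AD microglia the lower share of calls likewise went from 49.5% to 66.9% at 6 months and from 47.9% to 60.7% at 12 months. In astrocytes at 6 months it went from 48.3% to 59.5% in WT and from 50% to 61.0% in AD. In that order 38, 35, 37 and 26 members were lower, against 29.5%, 28.3%, 31.9% and 21.5% of all genes.

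**Figure D3:**
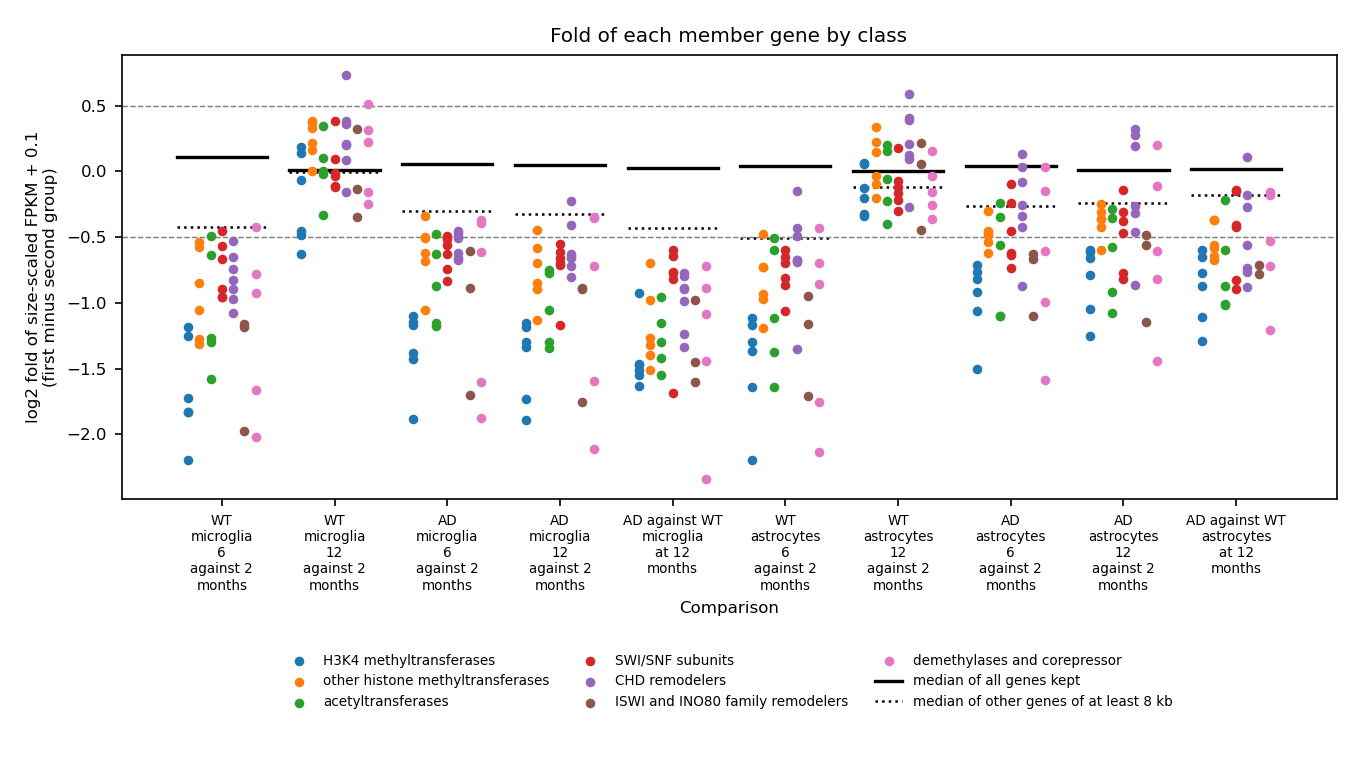
Log2 fold of each member gene, coloured by class, in the 10 comparisons at 6 and 12 months, with the median of all genes kept (solid bar), the median of other genes of at least 8 kb (dotted bar) and the threshold of 0.5 (dashed lines). In 7 of the 8 comparisons that involve WT at 6 months, AD at 6 months or AD at 12 months most points lie under -0.5 (18 of 38 do in AD astrocytes at 12 against 2 months), and in WT at 12 months against 2 months they scatter around 0.

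Long genes as a class were lower in the same comparisons. In WT microglia at 6 months against 2 months the median fold over all genes fell with length class from 0.50 at 1 to 2 kb to 0.01 at 4 to 8 kb, -0.34 at 8 to 12 kb, -0.57 at 12 to 16 kb and -0.78 at 16 kb or more. In AD against WT microglia at 12 months the same steps were 0.38, -0.04, -0.34, -0.58 and -0.81. Genes under 1 kb lay outside this order in WT microglia at 6 months, at a median of -0.16 with 45.2% lower and 36.3% higher. Other genes of at least 8 kb were lower in 44.4% of 1758 cases in WT microglia at 6 months (median -0.42), 32.9% and 35.1% in AD microglia at 6 and 12 months, and 44.6% in AD against WT at 12 months. In astrocytes the shares were 50.5% in WT at 6 months, 29.5% and 26.0% in AD at 6 and 12 months and 22.3% in AD against WT at 12 months. In WT microglia at 6 months other long genes were at a median of -0.38 when under 50% GC and -0.59 at 50% or more, and the members at -0.91 and -1.22. The other long genes were at -0.39 and -0.58 in AD against WT microglia at 12 months, but the members at -1.21 and -1.11. The members in this split by GC content are all 38, of which 33 were at least 8 kb long.

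When a smooth trend in length and GC content was taken out of every group, the count of lower members went from 35 to 16 in WT microglia at 6 months, from 29 to 6 and from 33 to 9 in AD microglia at 6 and 12 months, and from 38 to 22 in AD against WT microglia at 12 months. Of all genes 21.3%, 18.1%, 18.1% and 22.2% were then lower. In astrocytes it went from 33 to 4 in WT at 6 months, from 21 to 3 and from 18 to 2 in AD at 6 and 12 months, and from 25 to 5 in AD against WT at 12 months, against 20.3%, 14.2%, 15.2% and 13% of all genes. The members' share was then under that of all genes in the first 3 of these and close to it in the last. Some astrocyte members were then higher, Chd9 (0.84) and Trrap (0.54) in WT and Chd7 (0.59) and Chd9 (0.61) in AD at 6 months. At 12 months Chd6 (0.64), Chd7 (0.78) and Chd9 (0.68) were higher in AD, and Chd7 (0.55) and Trrap in AD against WT. Of all genes 25.9%, 16%, 16.9% and 13.7% were higher in these 4 astrocyte comparisons. Ep300 and Kdm6b remained lower in all 8 of these comparisons, Kdm6b at -1.46 in WT microglia at 6 months and -1.74 in AD against WT microglia at 12 months, and Ep300 at -0.87 in both. Crebbp and Setd1a remained so in 5 each and Setd2 in 4, with Setd2 at -1.2 in AD against WT microglia at 12 months. Kmt2d, GC-rich and 19931 bases long, went to -0.09 in WT microglia at 6 months and turned to 0.42 in AD against WT microglia at 12 months, as did Trrap (0.42, and 0.63 in AD against WT astrocytes at 12 months). The part of length and GC content in these differences was not tested beyond this.

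**Figure D4:**
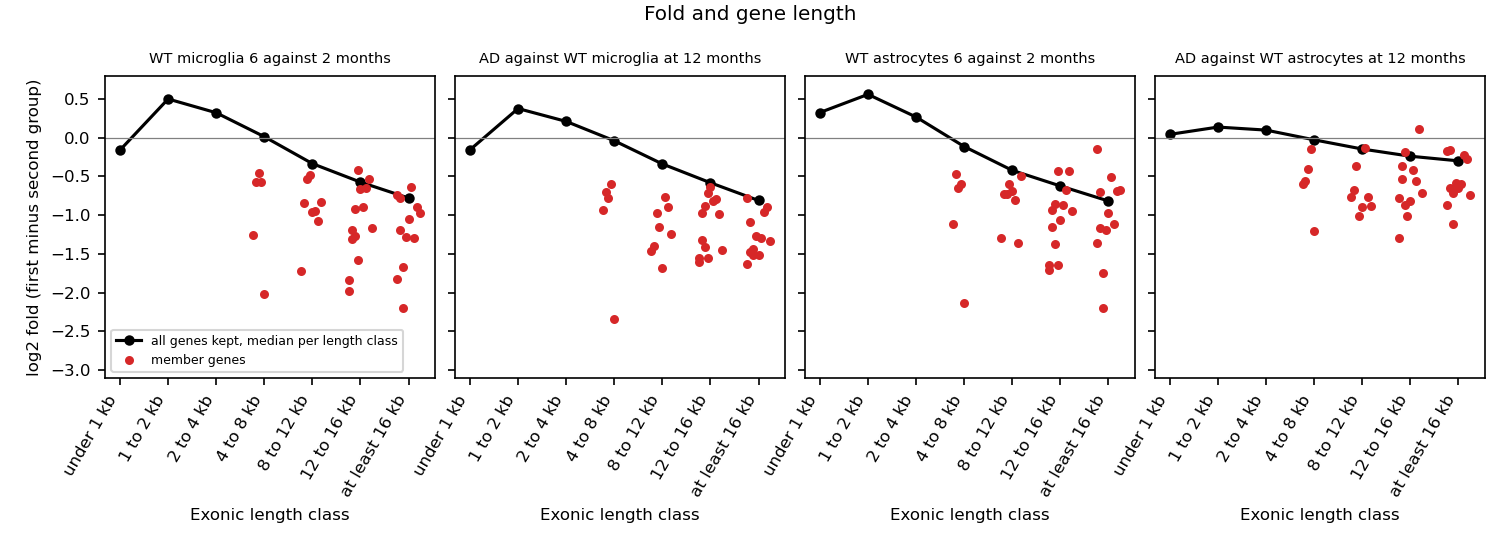
Log2 fold against exonic length class in 4 comparisons, with the median of all genes kept per class as black points joined by a line and each member gene as a red point spread sideways for legibility. The line falls from 0.50 at 1 to 2 kb to -0.78 at 16 kb or more in WT microglia at 6 months, and most members lie below it at their own length. Its point under 1 kb is at -0.16 in that comparison.

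The 170 other subunits and enzymes of the same complexes, in 11 lists, divided by length. In WT microglia at 6 months against 2 months 29 of the 51 partner genes of at least 8 kb that were kept were lower and 1 higher (median -0.56), while 16 of the 105 shorter ones were lower and 17 higher (median 0.13). In AD against WT microglia at 12 months the counts were 31 lower and 1 higher of 51 (median -0.63) and 19 lower and 10 higher of 106 (median -0.05). In WT astrocytes at 6 months they were 31 and 0 of 52 (median -0.59) and 21 and 16 of 114 (median -0.06). Over all genes the shares lower and higher were 25.3% and 26.9% in WT microglia at 6 months, 26.8% and 25.7% in AD against WT microglia at 12 months and 26.2% and 28% in WT astrocytes at 6 months. By complex in WT microglia at 6 months, the other demethylases and DNA methylation enzymes had 10 of 20 lower and none higher (median -0.54), ISWI remodelers and partners 4 lower and 2 higher of 9 (-0.46), other acetyltransferases 5 and 1 of 11 (-0.42), NCoR partners 3 and 0 of 7 (-0.31), other methyltransferases 7 and 1 of 19 (-0.30), other CHD remodelers 1 and 0 of 3 (-0.29) and Polycomb complexes 7 and 2 of 26 (-0.09). The lists of mostly small subunits had medians above 0: COMPASS core 3 lower and 1 higher of 13 (0.15), smaller SWI/SNF subunits 1 and 2 of 15 (0.16), NuRD partners 2 and 2 of 12 (0.17) and NuA4, SRCAP and INO80 partners 2 and 7 of 21 (0.43). Several of these lists were near or under the share of all genes lower, among them Polycomb complexes and the COMPASS core.

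The partner genes with the largest differences, among those that reached 5 FPKM in either group, recurred between comparisons. In WT microglia at 6 months they included Dnmt3a at -1.43 and Kdm3b at -1.16 on the low side and Bmi1 at 0.88, Prmt1 at 0.98 and Znhit1 at 0.98 on the high side. Dnmt3a encodes a DNA methyltransferase, Bmi1 a Polycomb subunit, Prmt1 an arginine methyltransferase and Znhit1 a subunit of the SRCAP complex. AD microglia at 6 months had Dnmt3a at -0.91 and Hcfc1 at -0.70 among the lowest and Eed at 0.81, Bmi1 at 0.92 and Dpy30 at 0.96 highest. At 12 months they had Hcfc1 at -0.87 and Smarcd1 at -0.76 among the lowest and Eed at 0.80, Dpy30 at 0.87 and Znhit1 at 0.94 highest. Hcfc1 is a cofactor of the SET1 and MLL complexes, Dpy30 and Eed are small core subunits of COMPASS and of Polycomb complex PRC2. In AD against WT microglia at 12 months the low end was Dnmt3a at -1.24, Prdm2 at -1.2 and Brd1 at -0.98 and the high end Rbbp4 at 0.83, Prmt1 at 1.18 and Chrac1 at 1.19. WT microglia at 12 months against 2 months had Kdm4a at -0.89 and Rbbp4 at -0.78 among the lowest and Kmt2e at 0.48, Kmt5c at 0.54 and Ezh1 at 0.66 highest.

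In astrocytes Dnmt3a was again among the lowest partners at 6 months. WT astrocytes at 6 months had Dnmt3a at -1.52 and Kdm4a at -1.15 among the lowest and Znhit1 at 0.98, Ruvbl2 at 1 and Ino80b at 1.10 highest. AD astrocytes had Dnmt3a at -1.29 and Hcfc1 at -0.66 among the lowest and Ino80b at 0.69, Gps2 at 0.85 and Znhit1 at 0.86 highest at 6 months. Gps2 is a small subunit of the NCoR complex, and Ino80b and Ruvbl2 belong to INO80-type complexes. At 12 months AD astrocytes had Dnmt3a at -1.27 and Phc1 at -0.68 among the lowest and Ruvbl2 at 0.67, Gps2 at 0.74 and Znhit1 at 0.77 highest. In WT astrocytes at 12 months the ends included Smyd2 at -0.72 and Pbrm1 at -0.50 and Gps2 at 0.64, Ino80b at 0.67 and Znhit1 at 0.69. In AD against WT astrocytes at 12 months they included Hcfc1 at -0.91 and Hdac5 at -0.63, and Hdac3 at 0.61, Rnf2 at 0.67 and Hat1 at 0.75.

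The profile of each member over the 10 groups of a cell type was close to the median profile of the other 37. As a description, Pearson's r ran from 0.75 (Kat6a) to 0.99 with a median of 0.97 in microglia, and from 0.59 (Chd9) to 0.995 with a median of 0.96 in astrocytes, over 10 groups in which genes share each group's depth and size factor. Of 5348 genes with at least 5 FPKM, those outside the lists that followed the members' median profile most closely in both cell types included Eif4g3, Map4k4, Usp7 and Ap3d1, with r of 0.97 to 0.99 and lengths of 7766 to 11063 bases. The 5 most opposed were Jkamp, Ndufs3, Ndufb5, Sdhb and Mrps33, with r of -0.99 to -0.98 and lengths of 1667 to 4995 bases. Sdhb, a subunit of succinate dehydrogenase, stood at 65.3, 61.4, 115, 66.1 and 63.4 FPKM in WT microglia at 2, 4, 6, 9 and 12 months and 70.9, 64.0, 117, 58.6 and 119 FPKM in AD microglia. Its 3 highest values are in the groups where the members were lowest.

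Across the 38 members the fold was only loosely related to their own length, with r between -0.26 and 0.12 over the 10 comparisons, and more to their GC content, with r between -0.57 and -0.20. These are correlations across genes within the same pair of groups, and genes are not replicates.

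At matched genotype and age the members were higher in microglia more often than all genes were in WT mice of every age and in AD mice at 2, 4 and 9 months. In WT mice 23, 25, 23, 28 and 25 of the 38 were higher in microglia at 2, 4, 6, 9 and 12 months, where 35.6%, 36.2%, 37.2%, 37.2% and 37.5% of all genes were, and none was lower. In AD mice the counts were 22, 18, 14, 24 and 8, against 34.8%, 32.8%, 35.1%, 38.3% and 35.5% of all genes. The members' share in AD mice was close to that of all genes at 6 months and under it at 12 months. At 12 months in AD mice 3 members were lower in microglia, Kat6b, Smarcc2 and Chd6, and at 6 months Smarcc2 was, against 37.6% and 37.7% of all genes. The median fold over the members was 0.59 to 0.73 in WT pairs and 0.20 in AD mice at 12 months.

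Chd9, Ep300, Arid1a, Chd2, Tet2 and Setd2 were higher in microglia in all 10 pairs. Chd9 had the largest median fold, 2.11, with median levels of 11 FPKM in microglia and 2.68 FPKM in astrocytes. Ep300 followed at 1.48 (6.92 against 2.52 FPKM) and Arid1a at 1.42 (12.3 against 4.15 FPKM). Smarcc2 was at the other end, at -0.38 (9.6 against 12.2 FPKM). Chd4, Kmt2a, Smarca4 and Smarca2 stayed within 0.5 in all 10 pairs. The cell types were sorted on different surface proteins, so a difference between them includes any difference between the sorts. The groups labelled astrocytes also held higher oligodendrocyte than astrocyte marker sums, and the part of such other cells was not tested.

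**Figure D5:**
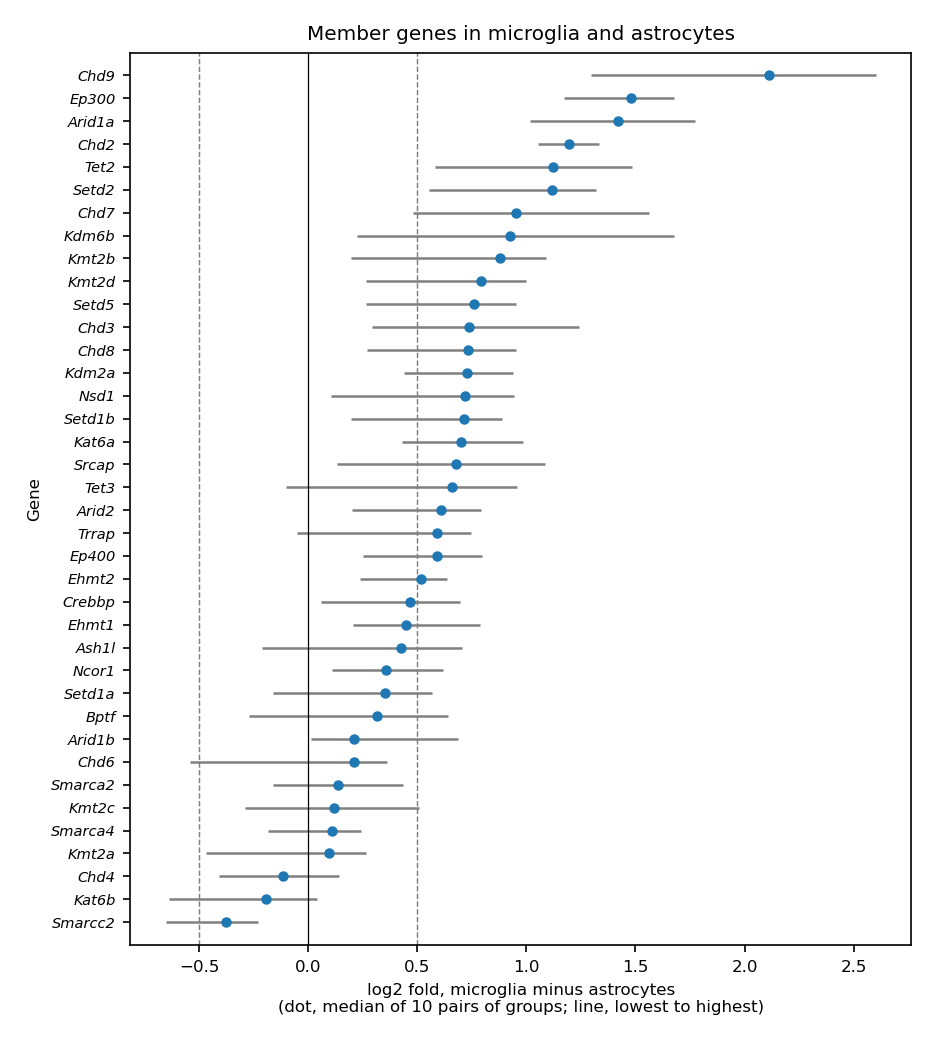
Log2 fold of microglia against astrocytes for each member, with the median of the 10 pairs of matched genotype and age as a dot, the lowest to highest pair as a line and the threshold of 0.5 as dashed lines. Chd9 lies farthest to the right with a median of 2.11 and Smarcc2 farthest to the left at -0.38.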

How the data were processed

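RNA sequencing was done on microglia and astrocytes sorted from WT and AD mice, from 10 ng of RNA per sample, with SMART-Seq amplification and paired-end reads. The authors deposited 1 table of FPKM values, with 1 column for each of the 20 groups and no column per library. How libraries were combined into a column is not given in the sources used here. The methods name HISAT2, featureCounts and DESeq2, while the submitters' processing notes name Bowtie 0.12.2 and the build mm8. The steps between low FPKM values fitted the exonic gene lengths used here, with 95.2% to 97.2% of low values within 0.001 of a whole step.

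Columns were divided by median-of-ratios size factors within a cell type (0.950 to 1.07 in microglia, 0.955 to 1.05 in astrocytes), and folds within a cell type are differences of log2(scaled FPKM + 0.1). The folds between microglia and astrocytes rest on another scaling, which is not given here. Genes with at least 0.5 FPKM in either group were kept, and a fold past 0.5 was counted. With 1 value per group no test was run. The calculation was tested on simulated data. The 38 genes, the 11 partner lists and the marker lists were chosen with earlier results of these data known. Full values are given for the most abundant gene of each of 7 classes and for the 3 genes of largest and the 3 of smallest range per cell type, and the 3 partner genes of at least 5 FPKM with the largest folds in each direction are named, as are the 5 genes most like and the 5 most opposed to the members. Some genes that these rules select are not reported here. Alternatives were other scalings, a pseudocount of 1, no filter, a threshold of 1, another age reference, and a correction for length and GC content by a polynomial of degree 3. The tables were computed with pandas 2.3.3 and NumPy 2.4.6 under Python 3.11.15, intervals with SciPy 1.17.1 and plots with Matplotlib 3.10.9.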

Additional observations from a re-analysis of the deposited data

Results flagged for a closer look

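Before correction for length and GC content, members in AD and WT microglia had medians of opposite sign at 9 and 12 against 2 months. At 9 months so did those of AD and WT astrocytes. At 9 against 2 months the median log2 fold over the 38 members was 0.34 in AD and -0.03 in WT microglia, a difference of 0.37. This difference also carries that between the genotypes at 2 months. Directly, AD against WT microglia had member folds of -0.45 (Nsd1) to 0.05 (Ehmt2) at 2 months. At 9 months they were -0.06 (Kat6b) to 0.46 (Srcap), and no member was called at either age. The AD fold was above the WT fold in 38 of 38 members, against 46.7% of 13955 genes kept in both and 68.3% of 1774 other genes of at least 8 kb. All genes of at least 16 kb were at medians of 0.34 in AD and 0.06 in WT microglia at that age. After the correction for length and GC content the AD fold was above the WT fold in 27 members. The matching shares were 46.0% of all genes and 54.7% of the other long genes. The members' medians were then 0.22 in AD and 0.05 in WT microglia, both above 0, a difference of 0.17. At 12 against 2 months the members' medians were -0.79 in AD and 0.10 in WT microglia, a difference of -0.89. The AD fold was below the WT fold in 38 of 38 members, against 46.7% of 13472 genes and 73.0% of 1746 other genes of at least 8 kb. Of the members 23 were above 0 in WT and below 0 in AD, as were 21.4% of all genes and 35.2% of the other long genes. After the correction the AD fold was below the WT fold in 33 members, against 43.4% of all genes and 52.4% of the other long genes. The exceptions were Arid1b, Chd9, Kmt2d, Smarca2 and Trrap, and the members' medians differed by -0.38. In astrocytes the medians at 9 against 2 months were 0.23 in AD and -0.21 in WT. Directly, AD against WT astrocytes had member folds of -0.42 (Smarca2) to 0.09 (Chd9) at 2 months. At 9 months they were 0.06 (Arid1b) to 0.54 (Kdm6b), with Kdm6b alone called. The AD fold was above the WT fold in 38 of 38 members, against 47.7% of 15118 genes and 69.7% of 2184 other long genes. At 12 months the astrocyte medians were -0.48 in AD and -0.05 in WT. There the AD fold was below in 34 members, against 48.8% of 14927 genes and 61.7% of other long genes. After the correction these counts were 28 and 29, against 44.0% and 46.8% of all genes. None of these differences was tested, since each group has 1 value. The neutrophil marker sum was 2031 FPKM in AD microglia at 9 months and 1141 FPKM at 12 months, against 60.2 and 287 FPKM in WT microglia. Over the astrocyte groups it was at most 6.07 FPKM. Its part in the differences of either cell type was not tested.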

How the results depend on the processing

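No paired analysis was possible because the table holds 1 column per group and the columns carry no replicate numbers. For the same reason leaving out each replicate, limma and the replicate block were not run. In the 10 comparisons at 6 and 12 months the counts of members lower stayed within 1.5 times without a filter, with FPKM as given and when the size factors came from genes that reached 1 FPKM everywhere. Quantile normalization gave 3 and not 1 lower in WT microglia at 12 months, and the mean of the other 4 ages as reference gave 0. After the correction for length and GC content, 16, 6, 9 and 22 members were lower in WT microglia at 6 months, AD microglia at 6 and 12 months and AD against WT microglia at 12 months, and 4, 3, 2 and 5 in the same comparisons of astrocytes. At a threshold of 1 these counts were 18, 12, 14 and 21 in microglia, 16, 6, 5 and 5 in astrocytes, and 0 in WT microglia at 12 months, beside 14.6%, 10.5%, 10.3% and 14% of all genes in microglia and 13%, 5.92%, 6.29% and 5% in astrocytes. With a pseudocount of 1, 19 were lower in AD microglia at 6 months, and 9, 9 and 14 in AD astrocytes at 6 and 12 months and in AD against WT astrocytes at 12 months, beside 13.5%, 9.11%, 9.97% and 8.18% of all genes. Another alternative, chosen after seeing the data, read only the 33 members of at least 8 kb against the median of other genes of that length. It gave 20, 13, 16 and 24 lower in microglia and 14, 10, 10 and 15 in astrocytes. The matching share of other long genes is not given here, so these counts have no background. The cause of these changes was not tested. The median over members in WT astrocytes at 12 months was -0.05, and 0.13 after the correction, which also turned Kmt2d and Trrap to 0.42 in AD against WT microglia at 12 months.

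The size factors from these better expressed genes also moved the lower share of all calls from 38.4% to 26.4% in WT microglia at 4 months, from 31.9% to 19.6% and 37.6% to 23.7% in AD microglia at 4 and 9 months, from 37.7% to 21.1% in AD against WT microglia at 9 months, from 35.2% to 23.1% and 44.6% to 32.2% in AD astrocytes at 4 and 9 months, and from 40.0% to 26.3% in AD against WT astrocytes at 9 months. Quantile normalization moved it from 32.3% to 43.0% in WT microglia at 9 months, from 31.9% to 46.5% in AD microglia at 4 months and from 31.5% to 46.7% in AD against WT microglia at 4 months, and FPKM as given moved it from 37.7% to 25.8% in AD against WT microglia at 9 months. 0 of 760 member values rested on under 100 fragments, but a fold close to 0.5 on either side can lie within counting error of the threshold, and the spread between mice is unknown.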
